A study of Homo sapiens with 4 samples.

Results

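The IFIT genes encode interferon-induced proteins with tetratricopeptide repeats, and 4 of them, IFIT1, IFIT2, IFIT3 and IFIT5, were examined. Members were the probesets of the deposited array table that the platform annotation assigns to exactly 1 of these symbols. This gave 23 probesets of 232479, for 4 of the 16543 genes that the table names by 1 symbol. IFIT1 had 8 probesets, IFIT2 6, IFIT3 3 and IFIT5 6, and no probeset named a member together with another gene. A probeset is a small group of probes that reads about 1 exon or a stretch of one.

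The arrays hold RNA of T-47D, a cell line of human luminal breast cancer. On 2 arrays the cells carried 200 nM of a mimic of the artificial microRNA p-27-5p, and on the other 2 a pre-miR negative control, whose dose the labels do not give. Both groups were grown in DMEM with 10% serum and transfected with TurboFect. The time from transfection to harvest and the sequence of the mimic are not given in the sources used here, and the labels do not say that arrays of a group are separate cultures. The p-values therefore measure array-to-array spread only, part or all of which may be technical, and 2 arrays a group limit the precision.

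IFIT genes are barely transcribed in resting cells and are among the genes that interferon, or the sensing of viral RNA, switches on most strongly. Signals from the interferon receptor reach them through ISGF3, a complex of STAT proteins and IRF9 that binds the interferon-stimulated response element. IRF3, activated below the RNA sensors RIG-I and MDA5, can bind the same element without secreted interferon. IFIT1 binds RNA whose 5′ end lacks the methylation of cellular caps and keeps it from being translated. IFIT3 stabilises IFIT1 and joins it in a complex, IFIT2 binds RNA and can promote cell death, and IFIT5 binds RNA with a 5′ triphosphate.

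To look for letters like those of the interferon-stimulated response element, the 250 bases before the annotated starts of IFIT3, IFIT1 and IFIT5 are shown. They come from RefSeq, build GRCh38.p14, plus strand of chromosome 10, written 5′ to 3′ with matches to GAAANNGAAA or, on the other strand, TTTCNNTTTC in capitals. IFIT3 has a pair of annotated starts, the first at chr10:89327747-89327996 and the second at chr10:89332279-89332528. The IFIT1 window is chr10:89392373-89392622 and the IFIT5 window chr10:89414318-89414567. That of IFIT2 was not analysed here.
IFIT3 first start: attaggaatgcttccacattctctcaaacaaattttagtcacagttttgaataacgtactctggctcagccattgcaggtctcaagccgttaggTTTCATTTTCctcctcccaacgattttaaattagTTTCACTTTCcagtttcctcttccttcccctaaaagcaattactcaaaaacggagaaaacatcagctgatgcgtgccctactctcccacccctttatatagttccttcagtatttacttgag
IFIT3 second start: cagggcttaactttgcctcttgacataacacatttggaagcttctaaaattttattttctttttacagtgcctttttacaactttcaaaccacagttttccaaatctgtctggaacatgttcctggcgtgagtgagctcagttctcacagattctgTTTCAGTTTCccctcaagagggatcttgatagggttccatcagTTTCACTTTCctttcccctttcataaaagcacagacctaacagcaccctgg
IFIT1: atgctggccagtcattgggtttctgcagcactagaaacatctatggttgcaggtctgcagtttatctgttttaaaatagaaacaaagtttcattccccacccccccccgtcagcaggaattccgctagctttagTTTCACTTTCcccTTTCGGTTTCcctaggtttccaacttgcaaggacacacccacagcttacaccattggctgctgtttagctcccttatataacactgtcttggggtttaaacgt
IFIT5: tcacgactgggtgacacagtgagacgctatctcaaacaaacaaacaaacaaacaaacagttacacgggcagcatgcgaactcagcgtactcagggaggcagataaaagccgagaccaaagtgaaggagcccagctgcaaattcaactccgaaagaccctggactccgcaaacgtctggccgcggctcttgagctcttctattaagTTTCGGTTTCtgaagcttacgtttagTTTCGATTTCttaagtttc

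Each of the 4 windows held 2 matches, all of them in the TTTCNNTTTC orientation, with none overlapping another. In IFIT1 the matches lay at -116 to -107 and -103 to -94 from the start, and in IFIT5 at -45 to -36 and -19 to -10. In IFIT3 they lay at -156 to -147 and -122 to -113 before the first start, and at -94 to -85 and -51 to -42 before the second. The letters TTTCACTTTC were found before IFIT1 and before both starts of IFIT3. The letters TTTCGGTTTC were found before IFIT1 and IFIT5. Of 35116 windows of 250 bases in the RefSeq table, 1061 (3.02%) held at least 1 match and 79 (0.225%) held 2 or more. A match is a string of letters and not a measured binding site.

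All 4 genes rose in the mimic arrays. IFIT3 had the largest increase of the 15719 genes tested, IFIT2 ranked 3, IFIT1 ranked 8 and IFIT5 ranked 20. In the same limma test with Benjamini-Hochberg adjustment, 239 genes (1.52%) rose at an adjusted p under 0.05. The median change over all genes was 0.00. Levels are log2 values, a gene's level is the mean of its probesets, and a change is mimic minus control on that scale.

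IFIT1 stood at 12.60 and 12.82 on mimic arrays 1 and 2, against 6.73 and 7.05 on control arrays 1 and 2. The groups lay far apart, and the arrays of a group differed by much less. The change was 5.82 (SE 0.166, 95% confidence interval from 5.40 to 6.24), a 56.3-fold increase with a limma adjusted p of 0.000215.

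IFIT3, the partner of IFIT1, stood at 11.83 and 12.11 in the mimic arrays and at 4.39 and 4.25 in the controls. Its change was 7.66 (SE 0.151, interval from 7.27 to 8.04), which is 202-fold. The limma adjusted p was 0.000122. Both control arrays were low and both mimic arrays high, with no overlap. Of its 3 probesets, 1 had a control mean below 4.08, the 4-array mean that a probeset needed to be used. That probeset entered through the mimic arrays and had to differ. With the same level required of the control arrays alone, the change was 7.79 (SE 0.132, limma adjusted p = 0.000105).

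IFIT2 stood at 10.68 and 10.82 with the mimic and at 4.00 and 3.92 with the control. The change was 6.79 (SE 0.127, interval from 6.47 to 7.11), a 111-fold increase with a limma adjusted p of 0.000122. The control arrays differed by less than those of any other member. Of its 6 probesets, 3 had a control mean below 4.08, entered through the mimic arrays and had to differ. With that level required of the control arrays alone, the change was 7.08 (SE 0.122, limma adjusted p = 0.000105).

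IFIT5 moved least of the family, from 5.42 and 5.61 in the controls to 9.63 and 9.98 in the mimic arrays. Its change was 4.29 (SE 0.170, interval from 3.86 to 4.72), a 19.6-fold increase with a limma adjusted p of 0.000426. Again the groups did not overlap. Across all genes, 20.5% had both mimic arrays above both control arrays.

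**Figure D1:**
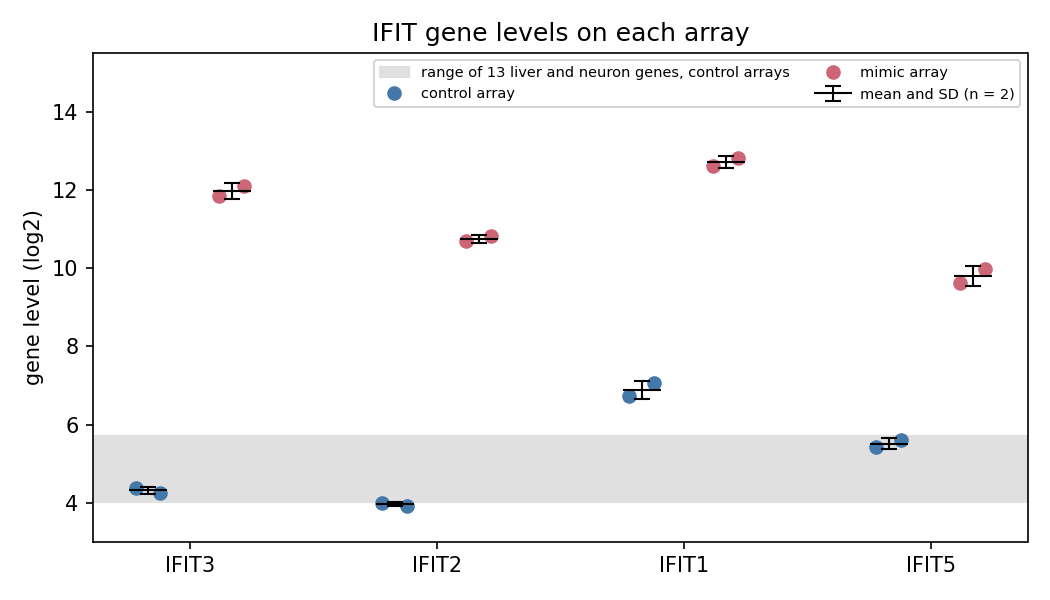
Gene level on the log2 scale (y axis) of each IFIT gene (x axis) on each of the 4 arrays, with the mean and SD of each group (n = 2) and a grey band for the levels of 13 liver and neuron genes in the control arrays. Every mimic array lies above every control array, and the control levels of IFIT3, IFIT2 and IFIT5, but not those of IFIT1, lie in or at the edge of the band.

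The control levels of most members lay in or near a range of levels taken as the array's background. Of 16 genes of liver and neurons, which this epithelial line should lack, 13 were measured, and their levels in the control arrays ran from 4.03 to 5.71 with a median of 4.80. IFIT3 (mean 4.32 ± 0.10, SD, n = 2) lay within that range, IFIT5 (5.51 ± 0.13, SD, n = 2) near its top, and IFIT2 (3.96 ± 0.06, SD, n = 2) just under it. IFIT1, at 6.89 ± 0.23 (SD, n = 2), lay above it. The filter on dim probesets cuts this range from below, and F9 and NEUROD6 were left out by it, so the background may be lower. IFIT2 and IFIT3 also hold dim probesets that entered through the mimic arrays, so their control levels and the range are not on like terms. A change measured from a background level can be smaller than the change of the transcript, so the folds of IFIT2, IFIT3 and IFIT5 may be too low. In the mimic arrays IFIT1 reached 12.71 ± 0.15 (SD, n = 2), IFIT3 11.97 ± 0.20, IFIT2 10.75 ± 0.10 and IFIT5 9.81 ± 0.25. The highest value anywhere in the table was 14.20.

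The sizes of the 4 increases were set against each other within each array, where 2 members share the same RNA. On mimic arrays 1 and 2 IFIT3 stood above IFIT5 by 2.21 and 2.13, and on the controls it read -1.04 and -1.36 relative to IFIT5. IFIT3 thus rose further than IFIT5 by 3.36, or 10.3-fold. IFIT2 rose further than IFIT5 by 2.50, and IFIT1 by 1.53. Among IFIT1, IFIT2 and IFIT3 the gaps were 0.87 between IFIT3 and IFIT2, 0.97 between IFIT2 and IFIT1 and 1.84 between IFIT3 and IFIT1.

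In each of the 6 pairs the per-array differences of the mimic arrays did not overlap those of the control arrays. The exact two-sided permutation test over the arrays gave p = 0.333 for each pair, also after adjustment over the 6 pairs, and 0.333 is the smallest p that 2 arrays against 2 can give. The gaps in the order IFIT3, IFIT2, IFIT1, IFIT5 are thus larger than the spread between these arrays, but this exact test cannot call them with so few arrays. The order was itself taken from these values, and no share over other pairs of genes was computed. The members started from unlike control levels, and what that adds to the gaps was not tested. The changes of single probesets overlapped between neighbours in this order. They ran from 7.38 to 8.07 for IFIT3, 6.22 to 7.71 for IFIT2, 4.49 to 7.29 for IFIT1 and 1.70 to 5.42 for IFIT5. The order was the same but the gaps differed when a gene was read by its brightest probeset alone, with 7.52 for IFIT3, 7.11 for IFIT2, 4.49 for IFIT1 and 3.59 for IFIT5.

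Single probesets gave the same direction throughout. All 23 passed the filter on dim probesets, and all 23 rose in limma's test with adjustment over 174802 probesets, of which 0.795% rose. Their adjusted p ran from 0.0017 to 0.0341. Both mimic arrays lay above both control arrays on every one of the 23, as on 21% of all probesets tested. For 3 probesets of IFIT2 and 1 of IFIT3 the control mean lay below the filter level of 4.08, so they entered through the mimic arrays and had to differ. When the same level was required of the control arrays alone, 19 member probesets remained and limma called 19.

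**Figure D2:**
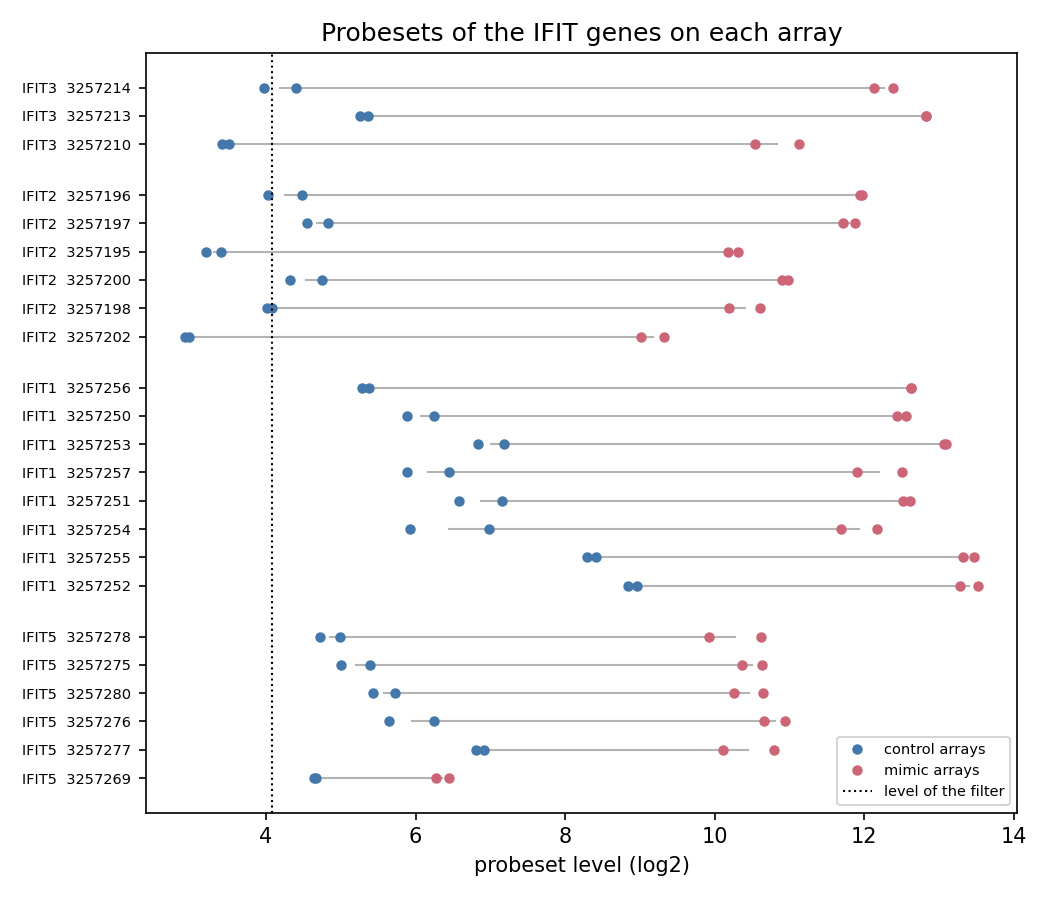
Level on the log2 scale (x axis) of each of the 23 IFIT probesets (y axis, by gene and probeset number, in order of change) on the 2 control and 2 mimic arrays, with a line between the group means and a dotted line at the filter level of 4.08. The control and mimic points are apart on each line, and IFIT5 probeset 3257269 has the shortest line, with a change of 1.70.

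The 3 IFIT3 probesets changed by nearly the same amount. Probeset 3257214 stood at 12.13 and 12.38 with the mimic and at 4.40 and 3.97 with the control, a change of 8.07. Probeset 3257213 stood at 12.83 on both mimic arrays and at 5.25 and 5.37 on the controls, a change of 7.52. Probeset 3257210, with 10.54 and 11.12 against 3.50 and 3.41, changed by 7.38. The changes of these 3 thus spanned less than 1 on the log2 scale. No position of a probeset was used, so the table does not say which annotated start of IFIT3 a probeset follows.

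The 6 IFIT2 probesets changed by 6.22 to 7.71. The largest change was that of probeset 3257196, at 11.94 and 11.97 against 4.02 and 4.48. The smallest was that of probeset 3257202, at 9.02 and 9.32 against 2.92 and 2.97, the dimmest of the 23 in the controls. Its control mean of 2.95 lay below the filter level of 4.08, so it entered through the mimic arrays and its groups had to differ. The same holds for probesets 3257195 and 3257198. Probesets 3257196, 3257197 and 3257200, with control means above that level, had a limma adjusted p of 0.0017, 0.0017 and 0.00176.

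The 8 IFIT1 probesets changed by 4.49 to 7.29, a wider span, and the change was smaller where the control level was higher. Probeset 3257256 had the lowest control level, 5.37 and 5.29, and the largest change, to 12.62 on both mimic arrays. Probesets 3257252 and 3257255 had the highest control levels, with means of 8.90 and 8.35, and the smallest changes, 4.49 and 5.04. Their mimic means were 13.40 and 13.39, the highest of the family. Over the 8 probesets Pearson's r of control level with change was -0.92, a description of probes on the same arrays whose change contains the control level. Over the 6 probesets of IFIT2 and the 6 of IFIT5, r was 0.36 and 0.09.

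Among the 6 IFIT5 probesets, 1 stood apart. Probeset 3257269 rose from 4.64 and 4.67 in the controls to 6.45 and 6.27 in the mimic arrays, a change of 1.70, or 3.25-fold. The other 5 changed by 3.59 to 5.42. Its limma adjusted p of 0.0341 was the highest of the 23, and it missed the threshold with each array left out in turn, at adjusted p from 0.132 to 0.224. Without it IFIT5 had a change of 4.81 (SE 0.195, limma adjusted p = 0.000467). The probeset was singled out after its values were seen. Probeset 3257254 of IFIT1, with control levels of 5.93 and 6.97, missed the threshold without mimic replicate 2 (5.24, limma adjusted p = 0.0525).

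Mimic array 2 read somewhat higher than mimic array 1 for each gene of the family, by 0.14 for IFIT2 to 0.35 for IFIT5. It was the higher of the pair on 19 of 23 probesets, against 52.6% of all probesets tested. In the controls, array 2 was the higher on 13 of 23, against 54.0%. With single arrays left out, the change ran from 5.66 to 5.98 for IFIT1, 6.72 to 6.86 for IFIT2, 7.52 to 7.80 for IFIT3 and 4.11 to 4.47 for IFIT5. The limma adjusted p of the 4 genes stayed at or below 0.000307 in these fits.

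The genes whose pattern over the 4 arrays was most like that of each member were ranked by Euclidean distance, after the control mean of each gene was subtracted. For IFIT3 the nearest were OAS2 at a distance of 0.76, IFI27 at 1.63 and TRIM22 at 2.02. For IFIT2 they were IFI27 at 0.43, OAS2 at 0.47 and TRIM22 at 0.82. For IFIT1 they were S100A8 at 0.27, OAS1 at 0.37 and OASL at 0.47. For IFIT5 they were RIGI at 0.16, SAMD9 at 0.22 and CASP1 at 0.30.

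Within the family the smallest distance was 1.23, between IFIT3 and IFIT2, and the largest 4.76, between IFIT3 and IFIT5. For IFIT1, IFIT2 and IFIT5, each of the 3 named genes was nearer than any other member. S100A8, a calcium-binding protein of neutrophils and inflamed epithelium, stood at 9.88 and 9.98 against 3.98 and 4.02, a change of 5.93. RIGI, which encodes the RNA sensor RIG-I, stood at 10.46 and 10.66 against 6.19 and 6.47, a change of 4.23. CASP1, the inflammatory caspase, stood at 7.88 and 8.13 against 3.48 and 3.55. The control levels of S100A8, CASP1 and TRIM22 lay below the filter level of 4.08, so some of their probesets entered through the mimic arrays and had to differ. Of the genes nearest in pattern, 5 were in the promoter table. Among those 5, IFI27 and SAMD9 held the motif, with 2 matches and 1.

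Sensors that lie upstream of IFIT genes rose as well. Of 12 measured genes of RNA sensing, 6 rose, 0 fell and 6 did not pass, with a median change of 0.74 against 0.00 over all genes. IFIH1, which encodes MDA5, stood at 9.40 and 9.37 with the mimic and at 5.63 and 5.57 with the control (change 3.78, SE 0.118, limma adjusted p = 0.000237). TLR3, the endosomal receptor for double-stranded RNA, stood at 7.36 and 7.25 against 3.91 and 3.80 (change 3.45). Its control mean of 3.86 lay below the filter level of 4.08, so some of its probesets entered through the mimic arrays and had to differ. With the filter on the control arrays alone, 6 genes of RNA sensing rose. DHX58 and EIF2AK2, which encode the sensor LGP2 and the kinase PKR, had changes of 3.08 and 1.98. Both had both mimic arrays above both controls, as had 20.5% of all genes.

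The signal carriers and adaptors of the sensing list did not pass in the main fit. MAVS, the mitochondrial adaptor, stood at 7.90 and 7.96 with the mimic and at 8.41 and 8.35 with the control (-0.45, limma adjusted p = 0.128), and was called lower without a filter (0.0483) and with an intensity trend (0.0326). The kinase genes TBK1 and IKBKE had 0.44 and 0.28, and TRAF3, TICAM1 and STING1 had 0.59, 0.59 and 0.57. TRAF3 and TICAM1 were called higher without a filter (limma adjusted p = 0.0311 and 0.0242) and with an intensity trend (0.0404 and 0.0372). TBK1 was called higher with the trend (0.0328). TICAM1 and STING1 were called higher without control replicate 1 (changes of 0.67 and 0.80), and TRAF3 without control replicate 2 (change of 0.74). TRIM25, a ubiquitin ligase that acts on RIG-I, had a change of 0.88 (limma adjusted p = 0.0404), but missed the threshold without mimic replicate 1 (0.155) or 2 (0.204) and with the median or brightest probeset (0.0657 and 0.158). TLR3 had 2.85 on its brightest probeset (limma adjusted p = 0.151), and the same change at 0.0577 with probesets above the table's median.

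Of 16 genes of interferon signalling, 14 were measured, of which 6 rose, 0 fell and 8 did not pass, with a median change of 1.03. IRF9, the DNA-binding subunit of ISGF3, stood at 9.07 and 9.10 against 6.81 and 6.90 (change 2.23, SE 0.120, limma adjusted p = 0.00118). STAT2, another subunit of it, stood at 10.35 and 10.52 against 8.36 and 8.51 (change 2.00). IRF1, an interferon-induced factor that binds related elements, stood at 8.27 and 8.31 against 5.03 and 4.83 (change 3.36). Each of these had both mimic arrays above both controls, as had 20.5% of all genes. IRF7, which amplifies interferon production, had 1.85, and 0.53 on its brightest probeset (limma adjusted p = 0.321). USP18, a brake on the interferon receptor, had 2.61.

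The receptor and its kinases did not pass. IFNAR1 and IFNAR2, the chains of the type I receptor, had -0.35 and 0.08, and IFNLR1 and IL10RB, the chains of the type III receptor, 0.10 and 0.39. JAK1 had -0.59 (limma adjusted p = 0.0776), called lower without a filter (0.0156) and with an intensity trend (0.00467), and TYK2 had -0.03. IRF3, which is activated without new transcription, had -0.16 (limma adjusted p = 0.619). SOCS1, another brake, stood at 5.61 and 6.48 against 4.62 and 4.14 and did not pass (1.67, limma adjusted p = 0.0761). It was called higher without a filter (0.94, limma adjusted p = 0.011) and with an intensity trend (0.0144). It also passed when mimic replicate 1, control replicate 1 or control replicate 2 was left out, with changes of 2.10, 1.90 and 1.43.

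Of the secreted ligands, IFNL1, a type III interferon, stood at 7.10 and 7.54 with the mimic and at 4.20 and 3.87 with the control, a change of 3.28. Its control mean of 4.03 lay below the filter level of 4.08, so some of its probesets entered through the mimic arrays and had to differ. With the filter on the control arrays alone, 6 genes of interferon signalling rose. IFNB1, which encodes interferon beta, was not tested in the main fit, since its 4 probesets lay below the filter. Without a filter it was tested, and it was among the 8 interferon signalling genes called higher. Probeset 3201146 of IFNB1 stood at 4.85 and 5.19 with the mimic and at 2.76 and 2.71 with the control, and probeset 3201145 at 4.13 and 4.70 against 3.27 and 3.36. On both, the mimic arrays were the higher, at levels where liver and neuron genes also lie. The other two IFNB1 probesets had changes of -0.06 and 0.04.

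**Figure D3:**
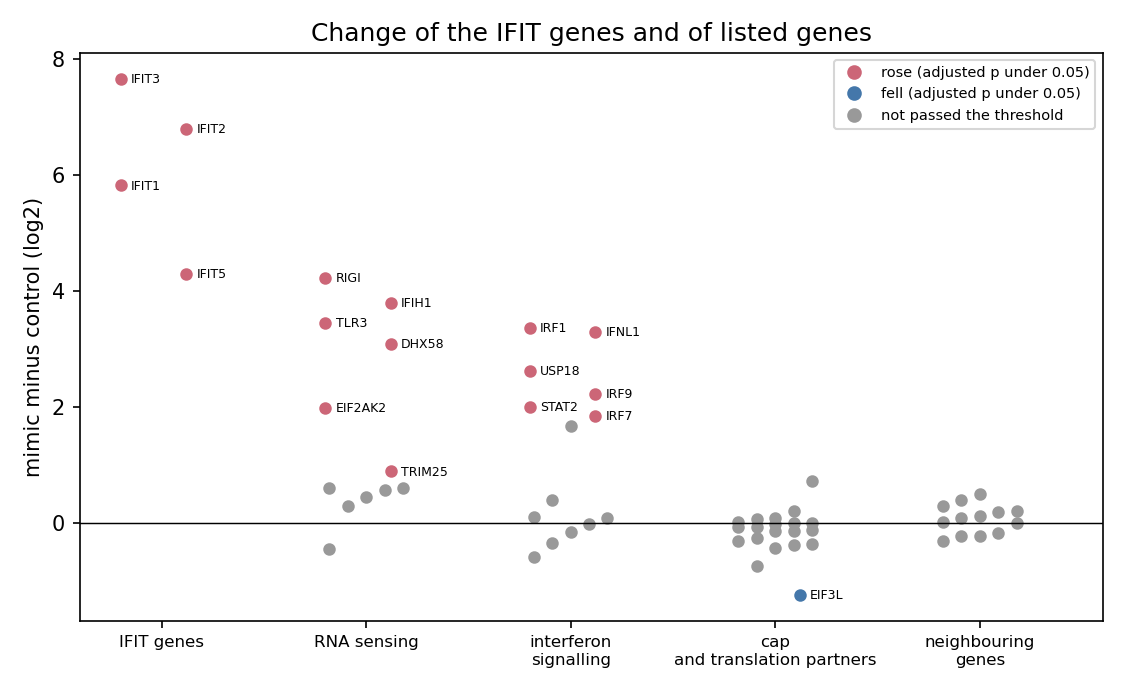
Change on the log2 scale, mimic minus control (y axis), of the 4 IFIT genes and of each measured gene of 4 lists (x axis), coloured by whether limma's adjusted p was under 0.05, with the names of genes that passed. The IFIT genes lie from 4.29 to 7.66, RIGI at 4.23 heads the sensors, IRF1 at 3.36 the signalling genes, and EIF3L at -1.24 is the 1 gene that fell.

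IFIT proteins act on capped RNA and bind eIF3, the factor that brings ribosomes to messages, so the genes of capping and of these factors were read too. Of 22 such genes 20 were measured, of which 0 rose, 1 fell and 19 did not pass in limma's test, and the median change was -0.10. Without adjustment, 1 of the 20 was higher and 4 were lower at a p under 0.05. Over all genes, 3212 of 15719 had such a p, in either direction. In all, 124 genes (0.789%) fell at an adjusted p under 0.05.

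CMTR1, the methyltransferase that marks caps so that IFIT1 does not bind them, stood at 9.96 and 9.94 with the mimic and at 9.22 and 9.25 with the control. Its mimic arrays lay above its controls, as in 20.5% of all genes, but it missed the threshold (0.72, limma adjusted p = 0.0539). It passed with control replicate 1 (0.0302) or 2 (0.0412) left out, with quantile normalization (0.0352), with no filter (0.00629) or the table's median as filter (0.0461) and with an intensity trend (0.00265). The capping enzymes RNGTT and RNMT had 0.20 and 0.00 and the second methyltransferase CMTR2 -0.01. EIF3L, a subunit of eIF3, fell by 1.24 on the log2 scale, from 10.74 and 10.85 to 9.49 and 9.61 (SE 0.127, limma adjusted p = 0.0137). It missed the threshold without mimic replicate 1 (-1.18, limma adjusted p = 0.0771) and had -0.56 on its brightest probeset (0.236). EIF3F had -0.75 (limma adjusted p = 0.0502) and passed under the same alternatives (from 0.00198 to 0.0442). EIF3E, a subunit that IFIT proteins are known to bind, had -0.32.

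The 4 IFIT genes lie side by side on chromosome 10, in the order IFIT2, IFIT3, IFIT1, IFIT5, with IFIT1B between IFIT3 and IFIT1. IFIT1B was not analysed here. Of 18 listed genes around them, 13 were measured and limma called 0, with a median change of 0.08. At an unadjusted p under 0.05, 2 were higher and 0 lower, against 3212 of all 15719 genes in either direction. On one side LIPA, the lysosomal acid lipase, stood at 10.12 and 10.38 with the mimic and at 9.62 and 9.91 with the control (0.49, interval from 0.06 to 0.91, limma adjusted p = 0.196). The longest annotated LIPA transcript runs on the opposite strand across the IFIT genes and starts close to IFIT5. CH25H, which makes 25-hydroxycholesterol and is known as an interferon-induced gene, had 0.20 on the 1 probeset that passed the filter, with levels of 4.52 and 4.52 against 4.62 and 4.03. On the other side SLC16A12 had -0.24 (interval from -0.55 to 0.08) and PANK1, a pantothenate kinase, -0.01. The intervals of the 13 neighbours ended at 0.94 or lower, and those of the IFIT genes began at 3.86 or higher.

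**Figure D4:**
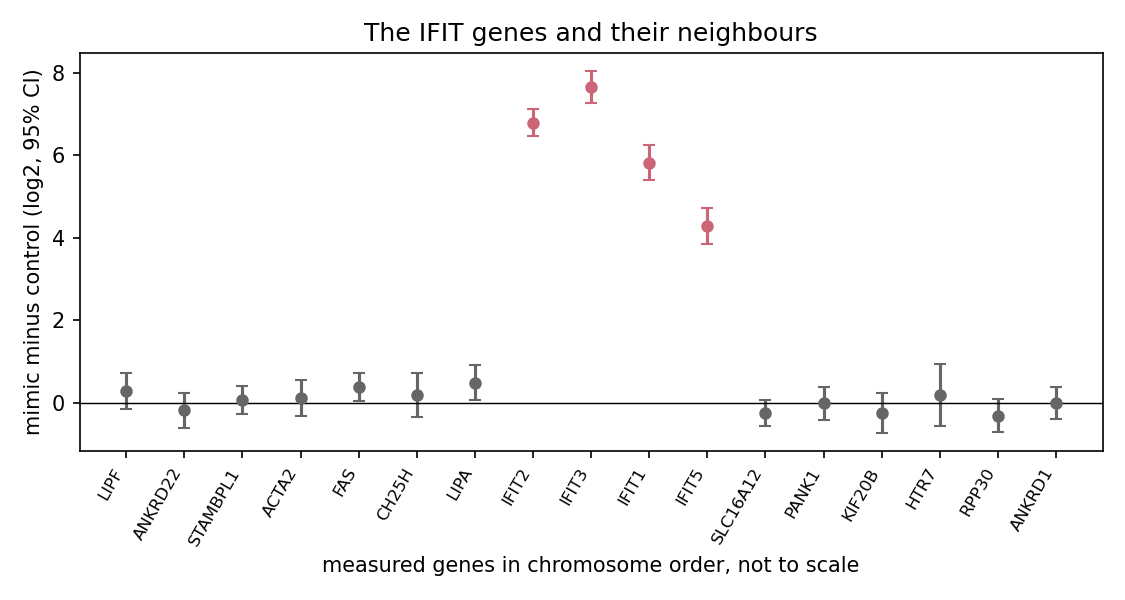
Change on the log2 scale with its 95% confidence interval (y axis) of the 4 IFIT genes, in red, and of 13 measured genes around them, in grey, in their order on chromosome 10 (x axis, not to scale). IFIT2, IFIT3, IFIT1 and IFIT5 lie between 4.29 and 7.66, and the neighbours between -0.31 and 0.49.

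The arrays carried the line's own markers. Of 12 genes of luminal epithelium 11 were measured, with group means from 8.77 to 12.40, and limma called 0 (0 higher and 4 lower at an unadjusted p under 0.05). Of 12 leukocyte markers 9 were measured and 0 called (1 higher and 0 lower unadjusted). Their summed level, as log2, came to 9.21 and 8.93 with the mimic and to 9.09 and 8.96 with the control. PTPRC, which marks all leukocytes, had control and mimic means of 4.52 and 4.81, in the background range. CD3E, CD14, NKG7 and CD3D lay above that range in the controls, with means of 7.38, 6.22, 5.88 and 5.79, and the other measured leukocyte markers within it. Limma also called 0 of 6 fibroblast and 0 of 4 endothelial markers, with 2 and 1 higher and none lower at an unadjusted p under 0.05. Over all genes, 3212 of 15719 had an unadjusted p under 0.05, in either direction. Over all probesets the arrays correlated with r = 0.985 between mimic arrays, 0.984 between controls and 0.966 to 0.973 across groups. In bulk RNA, more cells with a transcript and more of it per cell cannot be told apart.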

How the data were processed

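The authors deposited a log2 value for each exon-level probeset on each array. The submitters' processing notes name Partek, RMA and hg18, without versions. The 4 arrays do not share 1 distribution (interquartile range 4.18 to 4.52), and no further normalization was applied. Symbols came from GEO's platform annotation: 216780 probesets had 1 symbol, 2335 several and 13364 none; 25769 were updated through RefSeq synonyms, and probesets with several symbols named no gene. Probesets with 1 symbol and a 4-array mean of at least 4.08, the 25th percentile of all values, were averaged per gene. Mimic was tested against control in R 4.3.3 with limma 3.58.1 (lmFit, eBayes, two-sided; 2 residual degrees of freedom, 5.29 with the prior) over all 15719 genes, and likewise over all probesets, with p-values adjusted by Benjamini-Hochberg and called under 0.05. The fit was tested on simulated data. SE is that of the moderated fit, and SD the spread of 2 arrays.

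Members and lists were chosen with earlier results of these data known. Genes named are the members, genes of the 4 lists and the cell type markers, and for each member the 3 genes nearest in pattern. Tried as alternatives were the replicate number as a block, equal medians or quantile normalization, the table's median as filter or none, the median or brightest probeset, an intensity trend and each array left out. After the data were seen, a filter on the control arrays alone and a fit without the IFIT5 probeset of least change were added. Motifs were searched in RefSeq promoter windows (GRCh38.p14), which differ in build from the arrays; 3 of the 4 members were in that table. Python 3.11.15 with matplotlib 3.10.9 drew the plots.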

Additional observations from a re-analysis of the deposited data

How the results depend on the processing

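The increases of IFIT1, IFIT2, IFIT3 and IFIT5 passed limma's threshold under every alternative run (14 for IFIT5 and 13 for each of the other genes), with changes of 4.49 to 5.98, 6.59 to 7.11, 7.52 to 8.07 and 3.59 to 5.05. The lowest values of IFIT1 and IFIT5 came with the brightest probeset (adjusted p = 0.00403 and 0.0235). Of the member probesets, 22 of 23 passed with the replicate block (IFIT5 probeset 3257269 did not, at an adjusted p of 0.0691), 21 of the 21 above the table's median, and 21 to 22 with single arrays left out. The series' design text calls the samples paired but the labels do not say what a shared number marks. Over genes, mimic 1 minus mimic 2 correlated with control 1 minus control 2 at r = 0.435. With the replicate block 498 genes passed in place of 363, 3 in place of 1 gene of capping and translation (CMTR1 and EIF3F besides EIF3L), and no other call of a listed gene or member gene changed. The count of all genes was 1433 without a filter, 1594 with an intensity trend, 122 with the brightest probeset and 172 to 1691 with single arrays left out (172 and 186 without mimic replicate 1 and 2, 1691 and 690 without control replicate 1 and 2). The count of capping and translation genes was 3 with quantile normalization, without a filter and above the table's median, 5 with an intensity trend, 0 with the brightest probeset and 0 to 3 with single arrays left out. That of sensing genes was 10 with an intensity trend, 9 without a filter and 5 to 8 with single arrays left out. That of interferon signalling genes was 8, 9 and 6 to 7 in that order. With the trend and without a filter, 1 gene of each list was called lower, MAVS and JAK1. Limma called 0 neighbouring genes in every alternative. The cause of these shifts was not tested. The gene-level control value of IFIT3 lies in the background range, that of IFIT2 just under it and that of IFIT5 near its top, which may limit their changes. The filter cuts that range from below. IFIT5 probesets 3257277 and 3257276, with control means of 6.86 and 5.95, lie above that range.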
